A study of Homo sapiens with 2 samples.

Results

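Peaks of RUNX1 binding that lay in gene deserts were examined in MCF10A, a cell line derived from non-cancerous human breast epithelium. A peak was placed in a desert when its summit was more than 200 kb from the nearest protein-coding gene on chromosomes 1 to 22, with gene intervals taken from the RefSeq table of build GRCh38. Of the 13591 peaks in the list, 13367 were on these chromosomes, and 1112 of them were desert peaks, which was 8.32% (95% Wilson interval 7.86 to 8.80). The other 12255 peaks on the same chromosomes served as the comparison. Distance alone chose the desert peaks, and no measured height entered the rule.

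The cells of both libraries were RUNX1-deleted MCF10A cells transduced with a lentivirus that inducibly expresses RUNX1, and both were given doxycycline at 1 µg/ml for 24 hours. Hence the RUNX1 that was precipitated came from the vector, on a background without the cells' own gene. There was 1 library precipitated with an anti-RUNX1 antibody (80338845 tags kept after duplicate removal) and 1 library of input DNA made without antibody (87410774 tags kept). With 1 library of each kind there was no replicate and no test between samples. All intervals given here cover counting error only, and neighbouring peaks are not independent of each other.

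RUNX1 binds DNA through its Runt domain together with CBFB, its non-DNA-binding partner, and recognises a short motif, TGTGGT or TGCGGT. Gene deserts are long stretches of the genome without protein-coding genes. Some hold enhancers that act on a distant gene at the edge of the desert, and many such genes encode regulators of development, whereas others hold few known regulatory elements. Each desert is named below by the protein-coding genes on either side, which says where the peaks are and not which gene, if any, responds to them.

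Sequence was at hand where a desert peak overlapped the promoter window of a non-coding gene. There were 7 desert peaks on 7 RefSeq promoter windows, each of 300 bases from 250 before to 50 after the start of the gene. The motif TGTGGT or TGCGGT, on either strand, was in 5 of the 7 windows and in 6879 of the 35116 windows of all genes (19.6%). Of these 5, the windows of FAM95B1 and LOC105379252 are near-identical copies. In 2 of the 7 the motif lay inside the peak itself. These 2 windows are shown with the motif in capitals (ACCACA is TGTGGT on the other strand), together with a window that is nearly repeated in another desert. All are from GRCh38.p14 and are written 5′ to 3′ on the strand of the gene.
LINC02955: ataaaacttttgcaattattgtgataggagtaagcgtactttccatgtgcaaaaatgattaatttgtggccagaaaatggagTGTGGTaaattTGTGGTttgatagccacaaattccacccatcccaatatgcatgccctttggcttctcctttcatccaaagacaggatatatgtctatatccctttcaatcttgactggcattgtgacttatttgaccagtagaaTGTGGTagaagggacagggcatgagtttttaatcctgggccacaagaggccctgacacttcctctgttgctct
LOC105373710: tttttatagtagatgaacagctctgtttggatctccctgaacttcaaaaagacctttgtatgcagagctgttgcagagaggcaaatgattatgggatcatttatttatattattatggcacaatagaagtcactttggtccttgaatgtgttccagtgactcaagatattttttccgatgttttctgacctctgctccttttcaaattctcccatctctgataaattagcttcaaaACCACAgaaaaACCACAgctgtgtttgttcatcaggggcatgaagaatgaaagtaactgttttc
FAM95B1: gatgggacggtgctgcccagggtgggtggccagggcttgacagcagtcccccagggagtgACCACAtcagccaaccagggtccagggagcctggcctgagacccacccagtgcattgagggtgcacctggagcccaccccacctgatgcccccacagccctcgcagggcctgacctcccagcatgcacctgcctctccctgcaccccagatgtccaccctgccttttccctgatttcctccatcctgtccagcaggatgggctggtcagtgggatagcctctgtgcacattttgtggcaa

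The LINC02955 window (chr12:23175398-23175697, plus strand) held 3 copies of the motif, all inside a peak of 24 tags. The summit of that peak was 8 bases from the middle of the nearest copy. The LOC105373710 window (chr2:157056208-157056507, minus strand) held 2 copies inside a peak of 14 tags, whose summit was 4 bases from the middle of the nearest copy. The FAM95B1 window (chr9:40323321-40323620, plus strand) held 1 copy outside its peak, with its middle 324 bases from the summit. The window of LOC105379252 (chr9:66052685-66052984, minus strand) matched it at 299 of 300 bases, and the only difference was C169T, with positions counted from the 5′ end of the window. A match to 6 bases describes these letters and is not by itself a binding site, and the bases under the remaining desert peaks were not analysed here.

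Desert peaks had the same median height as other peaks and were slightly narrower. Height was measured as the pileup, the count of lengthened ChIP tags that cover the summit. The median pileup was 18 tags in deserts (95% interval 17 to 18, quartiles 15 and 23, n = 1112) and 18 tags elsewhere (18 to 18, quartiles 15 and 23, n = 12255). Tall peaks, of 30 tags or more, were less frequent in deserts once the ribosomal DNA described below was left out. They made up 7.04% of desert peaks (5.65 to 8.73) and 9.88% of others (9.37 to 10.42). Fold enrichment, the pileup over the local background after adding 1 to each, had a median of 5.00 in deserts (4.93 to 5.06) and 5.06 elsewhere (5.00 to 5.09). At least 5-fold enrichment was seen for 531 desert peaks (47.8%), beside 50.8% of all peaks on chromosomes 1 to 22. Median width was 143 bp in deserts (138 to 148) and 155 bp elsewhere (153 to 156), so these intervals did not meet. The cumulative curves of width, without the ribosomal DNA described below, were farther apart at 180 bp, which 68.2% of desert and 61.01% of other peaks did not exceed, than at 300 bp, with 94.0% and 91.0%. In all, 67 desert peaks (6.03%, 4.77 to 7.58) and 1122 other peaks (9.16%, 8.66 to 9.68) were 300 bp or wider.

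**Figure D1:**
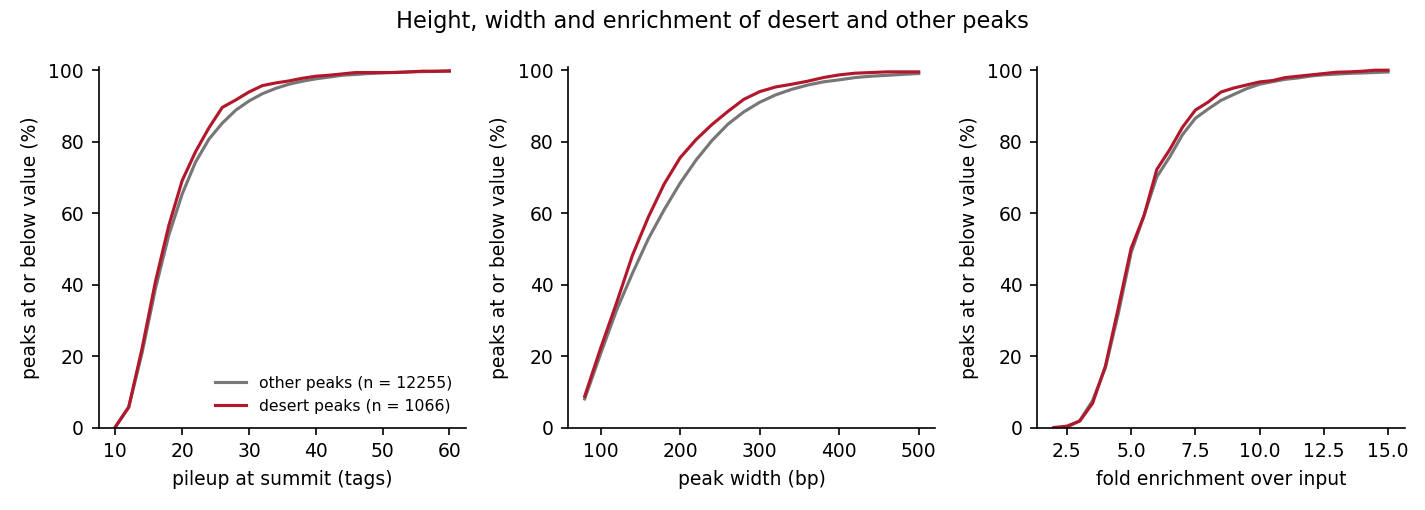
Cumulative share of peaks (y axis, %) at or below each pileup (tags), width (bp) and fold enrichment over input, for 1066 desert peaks without those at ribosomal DNA (red) and 12255 other peaks (grey). The desert curve of width lies to the left, with medians of 144 and 155 bp. That of pileup also lies slightly to the left above the median, with 89.6% of desert and 85.2% of other peaks at or below 26 tags. The curves of fold enrichment are closer, with 93.9% and 91.6% at or below 8.5-fold.

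The width difference was small at a given height, again without the ribosomal DNA. Among peaks of 15 to 19 tags the median width was 127.5 bp in deserts (120 to 133) and 134 bp elsewhere (132 to 136), and among peaks of 20 to 24 tags it was 180 and 191 bp. At 40 tags or more the 23 desert peaks had a median width of 331 bp and the others 334 bp. Among the lowest peaks, of 10 to 14 tags, it was 112 bp in deserts (105 to 120) and 106 bp elsewhere (104 to 108), and these intervals overlap. The peaks on either side of the 200 kb limit were alike in fold enrichment: the 49 peaks at 200 to 210 kb had a median pileup of 17 tags, a width of 136 bp and a fold enrichment of 5.02, and the 44 peaks at 190 to 200 kb had 18 tags, 154 bp and 5.06.

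The strongest peaks of the list were not in deserts. The tallest desert peak outside ribosomal DNA reached 62 tags and the highest fold enrichment in a desert was 14.1, whereas other peaks reached 148 tags, the ceiling that the tag filter allows, and 46.5-fold. A fold enrichment of 10 or more was found for 35 desert peaks (3.15%, 2.27 to 4.35), beside 3.86% of all peaks on chromosomes 1 to 22. At 15-fold or more there were 0 of 1112 desert peaks, which allows a share of up to 0.27% by a limit of 3 counts (0.344% by the Wilson interval), and 62 other peaks (0.506%, 0.395 to 0.648). Of these 62, 8 lay in RUNX1 itself. Ranked by −log10 q, the best desert peak was at place 62 of the list, 3 desert peaks were among the first 100 and 55 among the first 1000.

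A single locus on chromosome 21 stood apart and changed several of these values. It held 46 desert peaks within 241 kb (chr21:8205161-8446138), at the genes for 45S ribosomal RNA, the precursor of the ribosome's large RNAs, which are present in many near-identical copies. Their pileups were 76 to 113 tags, higher than any other desert peak, but the input was also high there. The input level, which is the local background expressed as a multiple of the genome background of 2.20 tags, had a median of 22.1 at these 46 peaks (14.8 to 34.6). Their fold enrichment was accordingly 1.48 to 2.62, and 37 of the 38 desert peaks under 2-fold were among them. RNA45SN2 held 14 of the summits, RNA45SN1 held 12 and RNA45SN3 held 11, and 23 of these 37 lay within 100 bp of the same offset in another copy. How reads were shared out among the copies was not tested, so the number of separate bound places among these 46 is not known, and values without them are given wherever they matter.

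**Figure D2:**
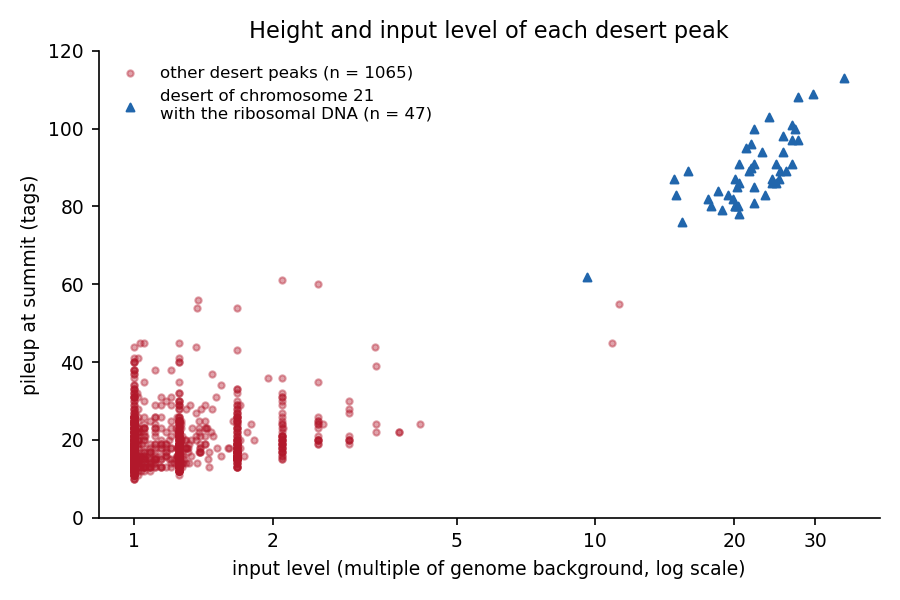
Pileup at the summit (tags, y axis) against input level (multiple of the genome background, log x axis) for each of the 1112 desert peaks. The 47 peaks of the desert that contains the ribosomal DNA (blue triangles) sit at high input levels, 46 of them between 14.8 and 34.6, whereas nearly all other desert peaks (red) are below 5.

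Outside the ribosomal DNA the input under desert peaks was ordinary. An input level of 2 or more was found for 122 desert peaks in all (11.0%), beside 8.57% of all peaks on chromosomes 1 to 22, and for 76 (7.13%) without the ribosomal DNA. Without it the median input level of desert peaks was 1.08 (1.05 to 1.11) and that of other peaks 1.11. At the genome background sat 454 desert peaks (42.6%) and 4751 other peaks (38.8%). That level, 1.00, was the lowest of any peak on chromosomes 1 to 22, so an input below it would not be seen. Leaving out the ribosomal DNA also lowered the share of desert peaks of 30 tags or more from 10.9% to 7.04% (5.65 to 8.73), compared with 9.88% of other peaks. Hence, without that locus, tall peaks were less frequent in deserts than elsewhere, although the medians were equal. Only 3 further desert peaks had an input level of 5 or more. The first, at chr21:8987152-8987241, had 62 tags and an input level of 9.60. It was in the same desert as the ribosomal DNA but 309 kb from the nearest other summit. The others lay in the gene-poor first part of chromosome 22, with 55 and 45 tags and a fold enrichment of 2.17 and 1.85.

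Peaks were sparser in deserts than elsewhere. The parts of deserts beyond 200 kb of any protein-coding gene, called cores here, numbered 803 and covered 677.9 Mb, or 23.6% of the chromosomes studied. They held 1107 peaks, or 1.63 per Mb (exact Poisson interval 1.54 to 1.73), compared with 5.58 per Mb (5.48 to 5.68) in the rest, a 3.42-fold lower density. The remaining 5 desert peaks were past the last gene of a chromosome. Some cores contain centromeric or unsequenced stretches in which no peak could be called. When stretches of 1 Mb or more without any listed gene (168.6 Mb with 16 peaks) were left out, the density was 2.14 per Mb, still 2.60-fold lower.

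Density fell with distance from genes, while the median height changed by 1 tag at most. It was 5.24 peaks per Mb inside genes, 8.27 within 10 kb of a gene, 4.03 at 100 to 200 kb, 2.57 at 200 to 500 kb, 1.25 at 500 kb to 1 Mb and 0.389 (0.308 to 0.485) beyond 1 Mb. The long gene-free stretches, 168.6 Mb in all, were not left out of these classes. The class beyond 1 Mb covered 202.9 Mb, and how much of it was gene-free or could hold no peak was not counted. The median pileup was 18 tags in every class up to 500 kb and 17 in both classes beyond it. The median distance of a desert peak to its nearest gene was 376 kb, 334 were farther than 500 kb, and 81 were farther than 1 Mb. A 10-fold enrichment was reached by 29 of 756 peaks at 200 to 500 kb (3.84%, 2.68 to 5.45), 4 of 226 at 500 kb to 1 Mb (1.77%, 0.690 to 4.46) and 2 of 79 beyond 1 Mb (2.53%, 0.697 to 8.77), and these intervals overlap.

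**Figure D3:**
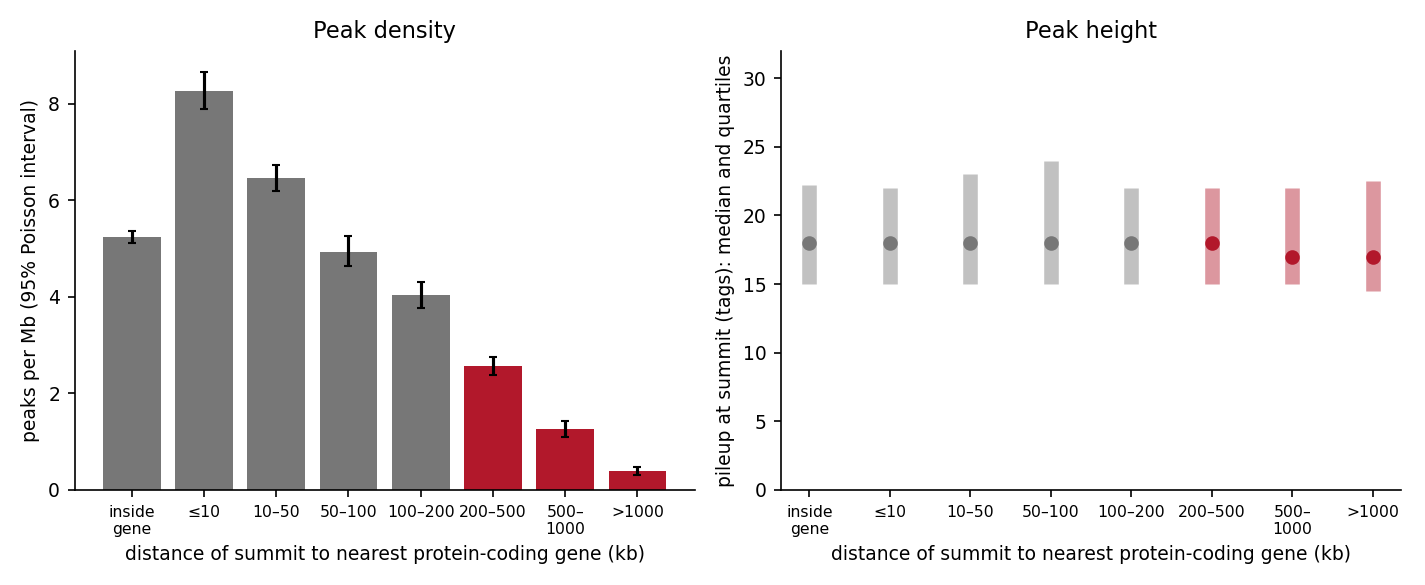
Peak density (left, peaks per Mb with 95% Poisson intervals) and pileup (right, median as a point and quartiles as a bar, in tags) by distance of the summit to the nearest protein-coding gene in kb, with the desert classes in red and without the ribosomal DNA. Density falls from 8.27 per Mb within 10 kb to 0.389 beyond 1 Mb, and the median pileup stays at 17 or 18 tags. Long stretches without any listed gene are not left out.

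Desert peaks were also farther from each other. Spacing is not independent of the lower density given above, and the part of density in it was not tested. Another summit lay within 10 kb of 300 desert peaks (27.0%, 24.5 to 29.7), beside 33.8% of all peaks on chromosomes 1 to 22 and 34.4% (33.6 to 35.2) of the peaks outside deserts. Without the ribosomal DNA it was 254 desert peaks (23.8%, 21.4 to 26.5). The share with a neighbour fell from 27.4% at 200 to 500 kb from genes to 7.59% beyond 1 Mb. The median distance to the nearest other summit was 53.9 kb in deserts, 63.5 kb without the ribosomal DNA and 24.9 kb elsewhere. At short range the difference in percentage points was smaller, with a neighbour within 1 kb for 8.72% of desert peaks without the ribosomal DNA and 12.03% of other peaks. The 254 desert peaks with a neighbour had a median of 18 tags and 154 bp, and the 812 without had 17 tags and 140.5 bp.

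Summits no more than 10 kb from the next were joined into runs. Without the ribosomal DNA, desert peaks formed 927 runs, of which 812 (87.6%) were single peaks, 99 were pairs and 16 (1.73%) held 3 or more. Other peaks formed 9849 runs, of which 81.6% were single and 426 (4.33%) held 3 or more. The longest desert run had 4 peaks and the longest elsewhere had 15. Runs of 4 were found between SNTB1 and HAS2 (18 to 36 tags over 14.1 kb), between SPATA31A1 and FOXD4L6 (12 to 31 tags over 1.48 kb), between HS3ST3B1 and PMP22 (14 to 21 tags over 18.2 kb), and between LOC107987004 and LOC107987067 (14 to 19 tags over 1.22 kb). At the ribosomal DNA there were 4 runs, of 15, 13, 12 and 6 peaks.

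The 10 desert peaks with the highest −log10 q lay in 10 different deserts. The first was at chr8:128391043-128391376, between MYC, a transcription factor that drives cell growth, and GSDMC, a gasdermin. It had 56 tags, a 14.1-fold enrichment and a −log10 q of 44.6, and its summit was 648 kb from MYC and 1314 kb from GSDMC. The next, at chr8:122434024-122434406, had 54 tags and 13.7-fold enrichment and lay in SMILR, a long non-coding RNA gene, 793 kb from HAS2, which makes hyaluronan, and 346 kb from the transcription factor gene ZHX2. The tallest of the 10, at chr1:221097730-221098103, had 61 tags in LOC101929750, 213 kb from HLX, a homeobox gene, and 604 kb from DUSP10, a phosphatase of MAP kinases. Its input level was 2.09 and its enrichment 11.1-fold. The broadest was 526 bp wide, at chr1:218706032-218706557 in LOC105372924, with 54 tags, 262 kb from TGFB2, a ligand of the TGF-beta family, and 468 kb from LYPLAL1.

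The other 6 of these peaks had 41 to 60 tags. That at chr3:40968748-40969033, with 45 tags and a 14.1-fold enrichment, was the tallest of a run of 3 and lay 231 kb from CTNNB1, the gene of beta-catenin, and 429 kb from ZNF621. That at chr2:235270945-235271275, in LOC105373940, had 45 tags and 13.9-fold enrichment and lay nearly midway between SH3BP4 (215 kb) and AGAP1 (223 kb). That at chr4:18276054-18276363 had 44 tags and 14.1-fold enrichment, 254 kb from LCORL and 1976 kb from SLIT2, which encodes a guidance ligand. That at chr1:98333440-98333799 had 60 tags but, with an input level of 2.50, only 9.36-fold enrichment, and lay between LOC124904228 and SNX7. That at chr20:60372844-60373300 had 45 tags and was 457 bp wide, between the cadherin genes CDH26 (337 kb) and CDH4 (879 kb). The last, at chr3:110593861-110594145 in LOC105374037, had 41 tags and lay between DPPA4 (1254 kb) and the adhesion gene NECTIN3 (478 kb). With counting intervals of 29.4 to 55.6 tags for 41 and 42.3 to 72.7 for 56, the heights within this group overlapped widely.

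RUNX1 has a desert of its own, which was looked up after the values were seen. Between RUNX1 and SETD4 there were 2 desert peaks. The first had 26 tags and 8.43-fold enrichment at 346 kb from RUNX1. The second, at chr21:35549274-35549661 in the non-coding gene LOC100506403, had 40 tags (28.6 to 54.5) and 12.8-fold enrichment at 500 kb from RUNX1. The input level was 1.00 at both.

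Peaks were spread over many deserts. Of the 803 cores, 391 (48.7%) held a peak and 412 held none. There were 145 deserts with 1 peak, 89 with 2, 65 with 3, and 157 with 3 or more, which together held 784 peaks. Only 7 held 10 or more. Deserts with a peak had longer cores (median 645 kb) than deserts without (235 kb). Of the 464 cores under 500 kb, 34.3% held a peak, compared with 71.9% of the 64 cores of 2 Mb or more. Density ran the other way, from 3.46 per Mb in cores under 500 kb, to 2.58 at 500 kb to 1 Mb, 1.60 at 1 to 2 Mb and 0.577 at 2 Mb or more, with the ribosomal DNA left out. The last class covered 298.2 Mb and held all 168.6 Mb of the long gene-free stretches, which were not left out here. Its density is therefore not on the same footing as that of the shorter classes.

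**Figure D4:**
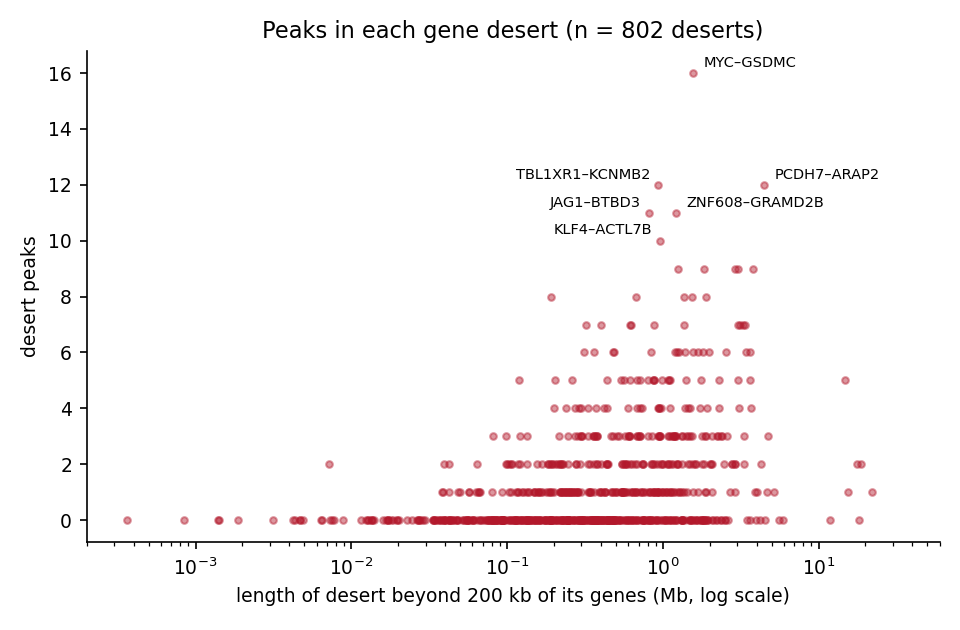
Number of desert peaks (y axis) in each of 802 deserts against the length of the core in Mb (log x axis), without the desert that holds the ribosomal DNA. The desert between MYC and GSDMC has the most, 16 peaks, and the largest cores hold few.

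The ribosomal DNA desert, between LOC102723475 and LOC101927345, had the most peaks, 47, of which 46 were those described above. Next was the desert between MYC and GSDMC with 16 peaks in a core of 1.56 Mb, or 10.2 per Mb, the highest density among other deserts with a core of at least 1 Mb. Its peaks began with 25, 18, 28 and 23 tags inside PVT1, a non-coding RNA gene beside MYC, at 207 to 334 kb from MYC. A pair of 21 and 30 tags followed at 433 and 434 kb, the 56-tag peak at 648 kb, and peaks of 29 and 33 tags at 1012 and 1158 kb. The lowest, in LINC00824, had 14 tags. The median input level over this desert was 1.52, above the median of 1.11 for all desert peaks, and its part in the count of peaks was not tested. Only the 56-tag peak passed 10-fold.

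The desert between KLF4, a Krüppel-like factor of epithelial differentiation, and ACTL7B held 10 peaks of 14 to 31 tags at a median input level of 1.00. Of these, 5 lay in LOC105376214, including a run of 24, 31 and 23 tags at 662, 667 and 674 kb from KLF4. The desert between JAG1, a ligand of Notch receptors, and BTBD3 held 11 peaks of 10 to 29 tags in 0.817 Mb, or 13.5 per Mb, also at an input level of 1.00. The tallest, 26 and 29 tags, stood at 594 and 703 kb from JAG1. None of the peaks in either desert reached 10-fold enrichment.

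Between TBL1XR1, a corepressor subunit, and KCNMB2, a potassium channel subunit, there were 12 peaks of 12 to 27 tags, and 8 of them were in the non-coding gene LINC00578. They gathered towards TBL1XR1, with 11 of the 12 between 248 and 634 kb from it. The desert between PCDH7, a protocadherin gene, and ARAP2 also held 12 peaks, but over a core of 4.46 Mb, and 11 of these lay 2156 kb or more from PCDH7. Between the transcription factor gene ZNF608 and GRAMD2B, 11 peaks of 13 to 31 tags included 5 at 215 to 285 kb from ZNF608. Hence a similar number of peaks was crowded at an edge in some deserts and far from both genes in others, as the map of these deserts shows.

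**Figure D5:**
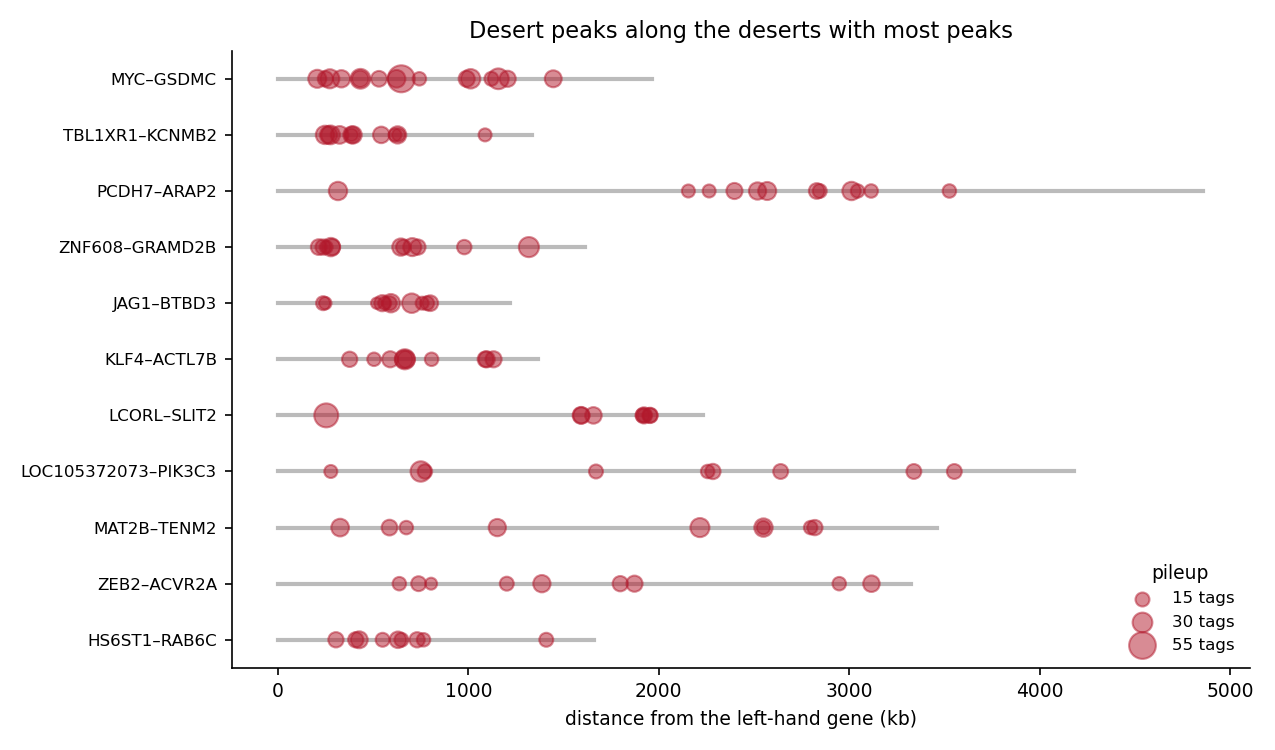
Position of each desert peak (distance from the left-hand gene in kb, x axis) in the 11 deserts with 9 or more peaks other than the ribosomal DNA desert. Grey lines span each desert from gene to gene and the area of a circle follows the pileup in tags. Peaks crowd within 634 kb of TBL1XR1 with 1 exception, whereas those between PCDH7 and ARAP2 are mostly beyond 2156 kb.

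The next deserts had 9 peaks each. In that between LCORL and SLIT2, the 44-tag peak stood alone near LCORL and the other 8, of 15 to 22 tags, lay 1592 to 1955 kb from LCORL, on the side of SLIT2. In that between ZEB2, a repressor of epithelial genes such as the gene of E-cadherin, and ACVR2A, an activin receptor, the peaks had 11 to 23 tags and none was within 10 kb of another. Those between MAT2B and the teneurin gene TENM2 had 14 to 28 tags, those between LOC105372073 and PIK3C3 had 13 to 32, and those between HS6ST1 and RAB6C had 14 to 22. At the other extreme, the desert between LINC02798 and H3-7 on chromosome 1 had 1 peak of 20 tags in a core of 22.04 Mb, of which 21.6 Mb was without any listed gene.

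Transcription factors of development were frequent among the genes beside deserts, with or without a peak. Genes of these families, chosen by symbol with earlier results known, made up 53 of the 740 genes beside a desert with a peak (7.16%, 5.52 to 9.25), 34 of the 673 genes beside only deserts without a peak (5.05%, 3.64 to 6.98), and 379 of all 19126 protein-coding genes on these chromosomes (1.98%, 1.79 to 2.19). The first pair of intervals overlap, so deserts with and without peaks could not be told apart by this count, whereas both lay above the share of all genes. Deserts beside such a gene carried more peaks per length. Without the ribosomal DNA, and for cores of 1 Mb or more, it was 2.71 per Mb (2.15 to 3.37) in 20 deserts beside a transcription factor of the list and 0.838 per Mb (0.755 to 0.927) in the other 168. The latter became 1.29 per Mb (1.16 to 1.43) when stretches of 1 Mb or more without any gene were left out as well, and the former did not change. For shorter cores it was 4.05 per Mb (3.34 to 4.85) in 82 deserts and 2.81 per Mb (2.56 to 3.07) in the other 532. The desert beside MYC is among the first 20 and held 16 of their 81 peaks. Core lengths were not matched within these classes. The median was 1403 kb in the 20 deserts and 1756 kb in the other 168, and 300 and 247 kb for the shorter cores. The part of core length in these differences of density was not tested.

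Beside deserts with at least 3 peaks there were 26 such genes of 306 (8.497%, 5.86 to 12.2). Several encode factors of the mammary or another epithelium. SOX9, a factor of epithelial progenitors, had 8 desert peaks on the side of KCNJ2 and 5 on the side of SLC39A11. On the KCNJ2 side they had 12 to 28 tags, and 6 of the 8 stood between 593 and 932 kb from SOX9, the tallest at 716 kb. On the other side they had 12 to 27 tags in a core of 120 kb, so the 200 kb limit itself kept them near SOX9. They stood 212 to 304 kb from SOX9 and 215 to 308 kb from SLC39A11. TBX3, which is needed for the mammary bud, had 7 desert peaks of 14 to 26 tags on the side of MED13L. GATA3, a regulator of luminal cells, had 6 peaks of 13 to 22 tags on the side of CELF2, 3 of them between 231 and 360 kb from GATA3. TFAP2A, an AP-2 factor of ectoderm and mammary epithelium, had 6 peaks of 14 to 29 tags, and the tallest stood 295 kb from it. ZNF703 had 6 peaks of 13 to 26 tags on the side of KCNU1, which formed 3 close pairs at about 274, 446 and 550 kb from ZNF703. The pairs at 446 and 550 kb were nearer KCNU1, at 313 to 317 kb and 210 kb.

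Other transcription factors of this group stood beside deserts of 3 to 8 peaks. There were 8 peaks beside BCL11B, 7 beside FOXL1 and 7 beside FOXD4L6, 6 beside NR2F1, 5 each beside MAF, MYCN, SOX2, ZIC1 and EBF1, and 4 each beside HLX and RORB. NR2F2 had 4 on the left-hand side and 3 on the other. There were 3 each beside GLI3, SOX6, MSX2 and MEIS1. The best peak in these deserts was 61 tags beside HLX, 41 beside FOXD4L6 and 36 beside NR2F1, and beside the others named here it was 17 to 30 tags.

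Genes of cell adhesion and synapse organisation, many of them very long and active in neurons, were also counted beside deserts. They made up 49 of 740 genes (6.62%, 5.04 to 8.65) beside deserts with a peak, 20 of 673 (2.97%, 1.93 to 4.55) beside those without, and 198 of 19126 in all (1.04%, 0.901 to 1.19). Deserts with a peak were longer than those without, as given above, and at a given length the intervals of the share with a peak overlapped. For cores of 1 Mb or more, 31 of 52 deserts beside such a gene held a peak (59.6%, 46.1 to 71.8) and 97 of 136 others did (71.3%, 63.2 to 78.3), and for shorter cores it was 19 of 43 (44.2%, 30.4 to 58.9) and 244 of 571 (42.7%, 38.7 to 46.8). In cores of 1 Mb or more, without the ribosomal DNA and the long gene-free stretches, the density was 1.08 per Mb (0.895 to 1.30) beside these genes and 1.62 per Mb (1.45 to 1.81) in the others. The median core length was 1889 kb beside these genes and 1562 kb in the others, and lengths were not matched. The group with at least 3 desert peaks had 23 members. PCDH7 (12 peaks), TENM2 (9) and the ephrin receptor gene EPHA4 (8, of 12 to 27 tags) led it, followed by LRRC4C and SLITRK1 with 7, UNC5D and PCDH10 with 6, TENM3, SLITRK6 and EPHA6 with 5, and CNTNAP3C with 4. There were 3 desert peaks each beside ADGRL3, FLRT2, CDH6, SLITRK5, LSAMP, CDH2, NCAM1, CDH9, CDH18 and the pair ADGRL2 and ADGRL4, which share a desert. The tallest of these peaks had 43 tags, beside ADGRL3.

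Secreted signalling factors and their receptors made up 19 of 740 genes beside deserts with a peak (2.57%, 1.65 to 3.98), 16 of 673 beside those without (2.38%, 1.47 to 3.83) and 179 of 19126 in all (0.936%, 0.809 to 1.08). Densities were again taken without the ribosomal DNA and the long gene-free stretches. In cores of 1 Mb or more the density was 2.61 per Mb (1.55 to 4.12) in 4 deserts beside such a gene. It was 1.40 per Mb (1.27 to 1.55) in the other 184. For shorter cores it was 2.83 (1.93 to 3.99) in 37 deserts and 2.99 (2.75 to 3.24) in the other 577. SLIT2 and ACVR2A had 9 desert peaks each, and ACVR2A shares its desert with ZEB2 of the transcription factor list. TGFB2 had 3, of 54, 16 and 13 tags at 262, 424 and 430 kb, so that a single tall peak made up most of this desert's signal. NRG1, an EGF-family ligand, had 3 of 24, 29 and 15 tags, all between 206 and 221 kb from it. The core there is only 134 kb long. There were also 3 each beside BMP2, PDGFD and IGF1R, and 3 in the desert that HGF and SEMA3C share, with best pileups of 19 to 23 tags.

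Non-coding genes held a part of the desert peaks. Without the ribosomal DNA, 355 of 1066 desert summits (33.3%, 30.5 to 36.2) lay in a long non-coding RNA gene. Such genes covered 19.6% of the core length, or 26.0% of it outside the stretches of 1 Mb or more without any gene. A further 696 (65.3%) lay in no listed gene. The median pileup was 18 tags in long non-coding RNA genes and 17 tags in no gene. Besides LINC00578 with 8, most desert summits were in MIR3681HG and LOC105370777 with 6 each, LOC105376214 with 5, and PVT1, LOC105370003, LOC105373893, LINC01170, LOC105374511, LINC01470, CFAP20DC-DT, DLEU1 and LINC02377 with 4 each. MIR3681HG also had the tallest peak of this group, 38 tags. There were 3 summits each in LOC124901056, LOC105379362, OFCC1, LOC107984402, LINC02484, LOC105372190, LINC00299, LINC00673, LINC02227, LINC01411 and LINC01483. The immunoglobulin heavy chain locus IGH, which the table does not list as protein-coding, held 3 desert peaks of 13 to 20 tags, and the T-cell receptor alpha locus held 1 of 10 tags.

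MicroRNA genes were near a few desert peaks. There were 16 hairpins within 100 kb of a desert summit and 3 within 10 kb. The mature miRNAs that RefSeq lists for MIR148A, MIR4290 and MIR205, whose peaks are described next, are shown with the seed, bases 2 to 8, in capitals (GRCh38.p14).
hsa-miR-148a-3p: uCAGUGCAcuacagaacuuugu
hsa-miR-4290: uGCCCUCCuuucuucccuc
hsa-miR-205-5p: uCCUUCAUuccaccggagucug
hsa-miR-205-3p: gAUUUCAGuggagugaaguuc

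MIR148A (chr7:25949919-25949986) lay 1.61 kb from the summit of a desert peak of 16 tags (9.15 to 26.0) and 3.64-fold enrichment, between NPVF and NFE2L3. MIR4290 (chr9:90023441-90023535) lay 8.74 and 8.82 kb from peaks of 15 and 23 tags, 1 on each side, between GADD45G and DIRAS2. MIR205 (chr1:209432133-209432242), whose miRNA is abundant in basal epithelial cells, lay 55.9 and 67.2 kb from peaks of 24 and 32 tags in the desert between PLXNA2 and CAMK1G. The input level at both of these peaks was 2.09, and their fold enrichment was 4.47 and 5.90. The third hairpin within 10 kb, MIR10396A, lay 406 bp from the 62-tag peak of high input in the ribosomal DNA desert. The seeds shown differ from each other, and no measurement here says whether any was made.

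Around the centromere of chromosome 9 desert peaks recurred at a pair of near-identical windows. From 38 to 68 Mb there were 26 of the 58 desert peaks of that chromosome, and 4 of the 26 had a fold enrichment of 10 or more. The peak beside the FAM95B1 start shown above had 40 tags (28.6 to 54.5) and 10.9-fold enrichment, with its summit 137 bases past the start. The peak beside LOC105379252, whose window is identical but for the base given above, had 44 tags (31.97 to 59.1) and 11.3-fold enrichment, with its summit 154 bases past the start. Each had a companion at almost the same distance: a peak of 41 tags lay 127.305 kb from the first, and a peak of 30 tags lay 127.420 kb from the second. A further pair, of 40 and 31 tags, lay 121.179 kb apart at chr9:64463573-64463914 and chr9:64342513-64342720. Identity of sequence was measured only for the windows of FAM95B1 and LOC105379252. How reads were shared out between these copies was not tested, so the number of separate bound places among these peaks is not known.

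Desert peaks were unequally spread over the chromosomes. Chromosome 2 had the most, 131, and chromosome 19 had 1. As a share of a chromosome's own peaks they ranged from 0.311% on chromosome 19 to 16.2% on chromosome 4, leaving aside chromosome 21, where 80.7% of the 57 desert peaks were at the ribosomal DNA. Per length of core the density was highest on chromosomes 8 (2.56 per Mb), 17 (2.52) and 20 (2.44). The median input level of their desert peaks was 1.30, 1.00 and 1.05, and its part was not tested. The lowest density, 0.188 per Mb on chromosome 19, came from 1 peak in 5.31 Mb. The long gene-free stretches were not left out of these lengths, so the chromosomes are not on the same footing. On chromosome 13 a single desert had 17.8 Mb of them, in 48.6 Mb of core.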

How the data were processed

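The authors deposited 1 peak list, called with MACS 2.1.2 on the RUNX1 precipitate against the input at a q limit of 0.05. The submitters' processing notes name Bowtie2 and hg38, and no version of the aligner is given in the sources used here. Per the file headers, tags of 54 bp were extended to 74 bp and duplicates were removed (89501295 ChIP and 94686274 input tags before, 80338845 and 87410774 after), so a pileup cannot exceed 148. The pileup is a deposited signal, the fold enrichment a deposited ratio, and p-values and q-values were deposited as −log10 values. The authors' own values were used as given, to describe peaks within the list.

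Here, distances to the RefSeq GRCh38.p14 gene table, distances between summits and the input level, (pileup + 1) / fold − 1 over the genome background, were computed in Python 3.11.15 with pandas 2.3.3, numpy 2.4.6 and scipy 1.17.1, and tested on simulated data. Shares have 95% Wilson intervals, medians order-statistic intervals, and counts and densities exact Poisson intervals. No genome sequence was used, so sequences under most peaks were not analysed here. Promoter windows and miRNAs were read from RefSeq tables of GRCh38.p14. The table lists some genes in unplaced or copied regions, which may shift single desert edges.

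The desert peaks, gene lists and settings were chosen with earlier results of these data known. Named genes are the flanking and holding genes of the 10 desert peaks with the highest −log10 q, flanks of the 10 deserts with most peaks, list members beside deserts with at least 3 peaks, flanks of the densest and sparsest core of at least 1 Mb, and non-coding genes with at least 3 desert summits. Deserts tied at 9 peaks were all kept, and other genes were named after their values were seen. Some genes that this rule picks are not reported here. After the first count the neuregulins were moved from the adhesion to the signalling list and the SLITRK genes, matched there by their first letters, were taken out of the signalling list. Alternatives were other distances (100 and 500 kb), stricter q, fold or input limits, other chromosomes, merged peaks, any gene, peak edges, another neighbour distance or height limit, and, added after seeing the data, the ribosomal DNA or long gene-free stretches left out and curated genes only.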

Additional observations from a re-analysis of the deposited data

How the results depend on the processing

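No paired analysis was possible because there was 1 ChIP library and 1 input library, and leaving out a replicate could not be done. The 8 main results were recomputed in 97 alternatives. Of these, 70 stayed within 1.5 times the count or within the interval of the value, and 27 moved. A turn of direction could be counted only for density, median width and the share with a neighbour, and there were 0. The number of desert peaks moved to 1999 at 100 kb, 334 at 500 kb, 41 when distance was taken from any gene, and 531 among peaks of 5-fold or more. Their share of peaks moved to 14.95%, 2.50%, 0.307% and 7.82% in the same order, and the density relative to the rest to 0.385, 0.165, 0.0454 and 0.274 from 0.293, and to 0.384 without long gene-free stretches. The numbers, and the shares for other distances or any gene, follow from the changed limits themselves. What moved the densities, and the share at 5-fold or more, was not tested. Of the 46 ribosomal DNA peaks, 0 reached 5-fold. For desert minus other peaks, the difference of median pileup was 1 tag from any gene and 1 tag without chromosomes 1, 5 and 8, against 0. The difference of median width was −19 bp from any gene and −21 bp at 500 kb, against −12 bp, and that of median fold enrichment was −0.372 from any gene, −0.266 at 500 kb, −0.135 with merged peaks and −0.188 at a q limit of 0.01, against −0.0598. The difference in the share at 10-fold or more was −2.12 percentage points at 500 kb, against −0.777, and became 1.00 point for a pileup of at least 30 tags, where the ribosomal DNA is counted. The difference in the share with a neighbour was −10.6 points without the ribosomal DNA, −15.7 within 50 kb, −14.3 from any gene and −12.5 at 500 kb, against −7.42. The cause of these differences was not tested. Depth limits single heights: a peak of 18 tags carries a wide counting interval, and a site bound weakly enough to miss the q limit is not in the list.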
